A study of Mus musculus with 12 samples.

Results

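Focal adhesions are the protein assemblies through which a cell holds on to its matrix, and 10 genes encoding their adaptors and kinases were followed in mammary epithelial cells with and without knockdown of Snail1. The 10 genes were picked by name, without a threshold on any measured value. They are Pxn, Bcar1, Vcl, Tln1, Zyx, Ptk2, Src, Ilk, Parva and Fermt1. Each is 1 of the 57180 genes in the expression table, and all 10 reached the level needed for testing, as did 14426 genes in all. The cells were HC11, a mouse mammary epithelial cell line. Control cells carry the genotype label WT, with titles that begin scr, and the others are labelled as having a knockdown of Snail1, the transcription factor encoded by Snai1. The headings of the deposited knockdown means begin with sh, which the labels do not explain. Both kinds of cell were sorted by flow cytometry, left overnight in medium with serum, EGF and insulin to aggregate, and taken for RNA at 0 h or 36 h of a migration assay in culture. There were 3 libraries in each of the 4 groups, and no treatment other than the knockdown and the assay was named.

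Integrins have no enzymatic activity of their own, so they act through proteins that gather on their short cytoplasmic tails. Talin and kindlin bind the tail and bring the integrin into its active state, and vinculin ties the stretched talin to actin. The kinases FAK and Src phosphorylate the scaffolds paxillin and p130Cas, which recruit regulators of the actin cytoskeleton. A separate complex of integrin-linked kinase, PINCH and parvin makes a further bridge to actin, and zyxin gathers where adhesions and stress fibres are under tension. In mammary epithelium these proteins couple the basement membrane to polarity, survival and milk gene expression, and moving epithelial sheets build and dissolve adhesions at their front. Snail1 is best known as a repressor of E-cadherin in epithelial to mesenchymal transition.

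The targeted gene was low in every knockdown library. Snai1 stood at 1.34, 2.51 and 1.69 TPM (a level corrected for gene length and scaled to the same total in every library) in the 3 control libraries at 0 h and at 0.58, 0.79 and 0.48 TPM in the knockdown. At 36 h it stood at 2.77, 2.69 and 3.92 TPM against 0.58, 0.44 and 0.20 TPM. The log2 fold change on log2(TPM + 1) was -0.80 at 0 h (limma adjusted p = 0.0348) and -1.55 at 36 h (limma adjusted p = 0.0105). The call was lost in 10 of 22 other settings at 0 h (adjusted p up to 0.189) and in 5 of 22 at 36 h (up to 0.169), with the direction kept in each. All 8 mammary epithelial markers examined passed the filter of 1 TPM in 3 libraries, with summed levels of 3334 to 25470 TPM per library. Endothelial markers summed to 0.49 to 7.02 TPM, nearly all Pecam1, and adipocyte markers to 0 to 0.27 TPM, with Adipoq at 0. Knockdown 0 h library 2 stood apart, with 14.0% of its TPM from mitochondrial genes against 1.45% to 6.15% in the other 11 libraries, and 11.99% from ribosomal protein genes against 3.72% to 5.62%. Knockdown 0 h library 3 had 27715 genes above 0, against 20932 to 23427 in the others. Control 36 h library 4 carries an unexplained "mix" in its title, and its level lay between those of libraries 1 and 3 for 8 of the 10 genes (all but Src and Fermt1) and for 57.6% of tested genes. If it is a pool, control at 36 h has 2 independent libraries. Whether any replicates are separate cultures is not stated, and the p-values describe the spread among these libraries alone.

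At 0 h, 5 of the 10 genes were lower in the knockdown and none was higher: Pxn, Zyx, Ilk, Bcar1 and Fermt1. A gene was called at a Benjamini-Hochberg adjusted p under 0.05 in a limma fit of log2(TPM + 1) over all tested genes. Of all tested genes, 14.6% were called lower and 3.1% higher. The median log2 fold change of the 10 was -1.25, and that of all tested genes was -0.41. In 7 of the 10 every knockdown library lay below every control library, against 30.7% of tested genes. At 36 h only Pxn was called lower, where 1.64% of tested genes were and 0.894% were higher. The median at 36 h was -0.55, against -0.09 for all tested genes. In 4 genes (Pxn, Zyx, Ilk and Fermt1) the 36 h groups did not overlap, against 22.0% of tested genes. Pxn, Zyx and Ilk had all 6 knockdown libraries below all 6 control libraries, as did 11.3% of tested genes.

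Summed over the 10 genes, the level was 545 to 574 TPM in the control libraries at 0 h and 163 to 329 TPM in the knockdown. At 36 h it was 421 to 619 TPM in control and 320 to 359 TPM in the knockdown. The ranges did not overlap at either time, and knockdown 0 h library 2 gave the lowest sum of all. Summed fibroblast markers were also lower in most knockdown libraries, at 4.78 to 16.0 TPM against 15.4 to 17.9 TPM in control at 0 h and 7.97 to 13.8 TPM against 13.3 to 24.4 TPM at 36 h. Of 7 such markers 4 were tested, with log2 fold changes of -1.01 to 0.03 at 0 h and -1.13 to 0.42 at 36 h. At each time 1 was called lower, and Lum and Col1a2 stayed under 1 TPM. The 8 mammary epithelial markers had values of -1.41 to -0.34 at 0 h (median -0.89), with 2 called lower. At 36 h these ran from -0.90 to 0.48 (median -0.19), with none called. Immune markers, nearly all of it Cd68, summed to 6.64 to 10.6 TPM against 9.93 to 14.7 TPM and to 2.14 to 2.42 TPM against 3.16 to 3.85 TPM. The part of such cells in the results was not tested. Fewer cells of a type and less RNA per cell cannot be told apart in these bulk samples.

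**Figure D1:**
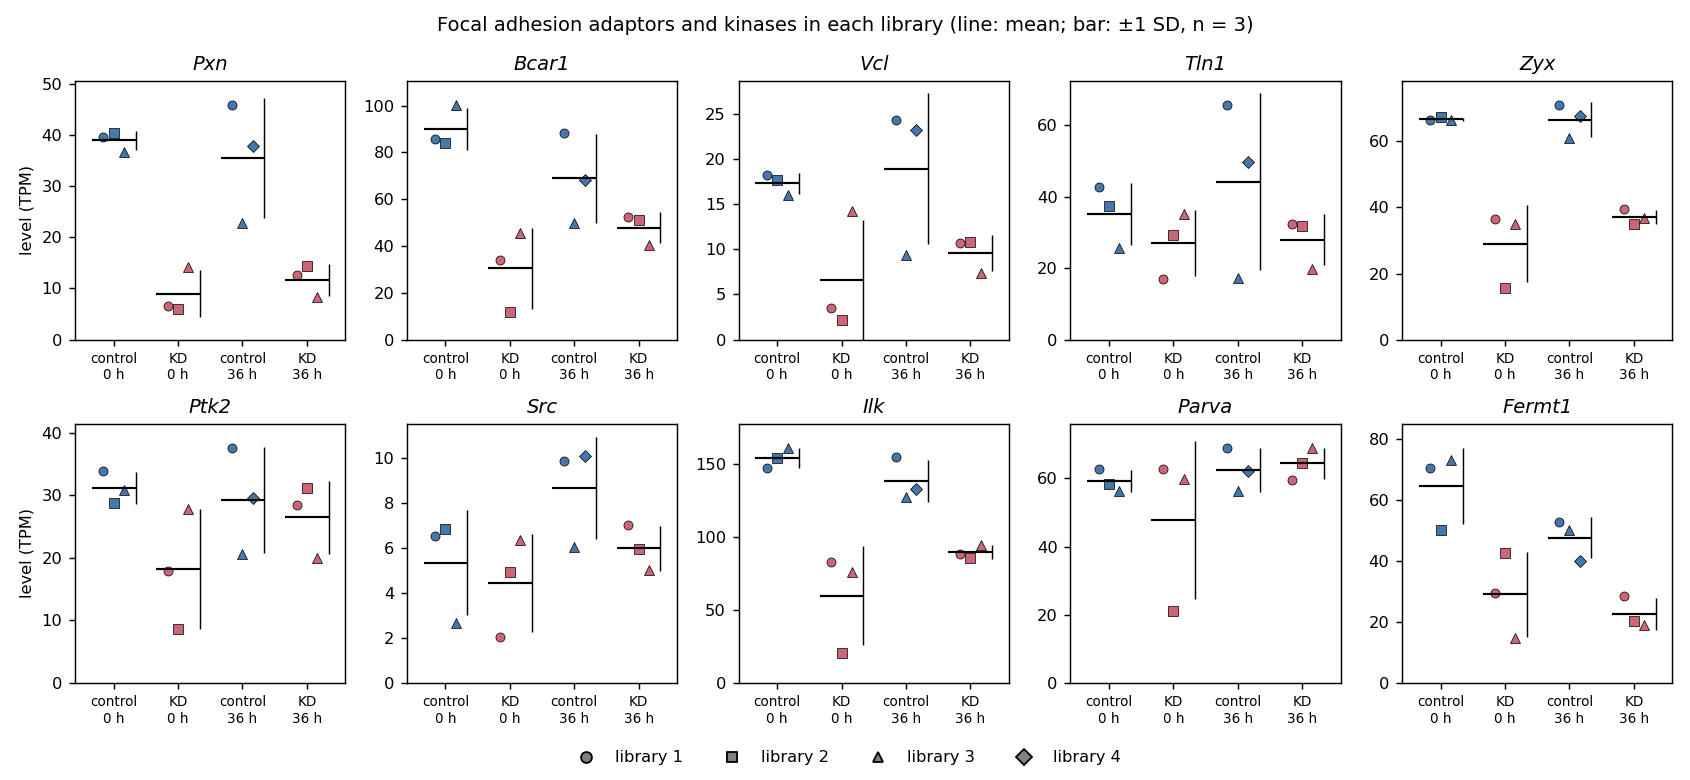
Level of each of the 10 genes in TPM, by group, on axes that start at 0, with 1 point per library, a line at the group mean and a bar of 1 SD either way (n = 3). Pxn, Zyx and Ilk have every knockdown point below every control point at both times, while the Parva points overlap.

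**Figure D2:**
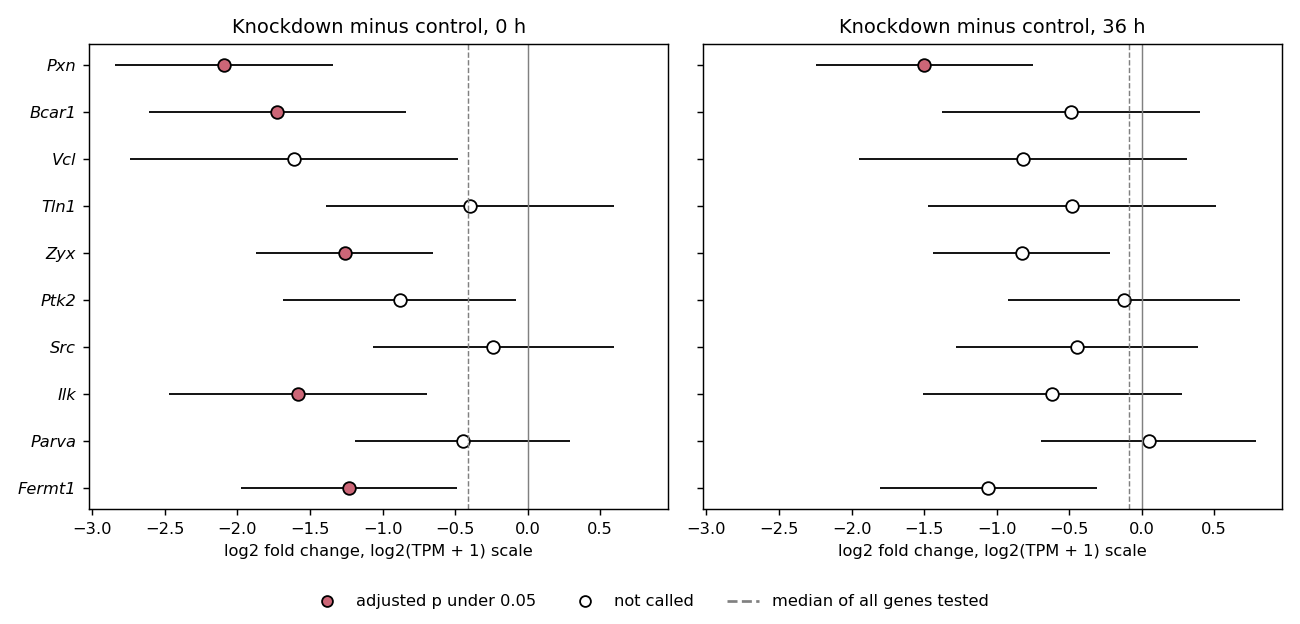
Log2 fold change of each gene, knockdown against control, at 0 h and at 36 h, with 95% intervals from the limma fit, filled points for called genes and a dashed line at the median of all tested genes. At 0 h the values run from -2.09 (Pxn) to -0.24 (Src), and at 36 h from -1.50 (Pxn) to 0.05 (Parva).

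Both counts moved with the libraries fitted, as did the share of all tested genes called in either direction. At 0 h that share was 5.27% without control 0 h library 1, 7.05% without library 2 and 6.50% without library 3. It was 0.668% when only the 6 libraries of 0 h were fitted. At 0 h, Pxn alone was called without control 0 h library 1, Pxn and Zyx without control 0 h library 2 or 3, and none was when only the 6 libraries of 0 h were fitted, where the adjusted p of limma was 0.0559 for Pxn and 0.116 to 0.155 for the other 4. Without knockdown 0 h library 2, the same 5 genes were called at 0 h, and Pxn, Zyx, Ilk and Fermt1 at 36 h. In that fit 23.7% of 14227 tested genes were called at 0 h and 19.0% at 36 h, with 2396 and 1701 lower. Median-of-ratios scaling divides each library by its median ratio to a common reference. It moved the median of all tested genes at 0 h to -0.02 and that of the 10 to -0.79. Pxn, Bcar1, Zyx and Ilk were then called lower, where 1570 of all 14373 tested genes were lower and 1126 higher. With that scaling 5 genes (Pxn, Bcar1, Vcl, Zyx and Ilk) had groups that did not overlap at 0 h. The matching share of all tested genes was computed only without scaling (30.7%), so this count has no background beside it. Leaving out knockdown 0 h library 2 gave medians at 0 h of -0.17 for all tested genes and -0.92 for the 10.

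Among the scaffolds, Pxn had the largest difference of the 10. Pxn (ENSMUSG00000029528) encodes paxillin, a docking protein of LD motifs and LIM domains that FAK and Src phosphorylate. It stood at 39.6, 40.5 and 36.8 TPM in the control libraries at 0 h and at 6.64, 6.04 and 14.3 TPM in those with the knockdown. At 36 h the control libraries had 46.0, 22.9 and 37.9 TPM and the knockdown libraries 12.7, 14.3 and 8.24 TPM. The groups stood apart at both times, although knockdown 0 h library 3 had more than its fellows and control 36 h library 3 had less. Its log2 fold change was -2.09 at 0 h (SE 0.342, 95% interval -2.84 to -1.34, limma adjusted p = 0.00396) and -1.50 at 36 h (SE 0.342, 95% interval -2.25 to -0.75, limma adjusted p = 0.0468). The 36 h call was lost in 13 of the 23 other settings. They include leaving out control 36 h library 1 (limma adjusted p = 0.212), control 36 h library 4 (0.190), knockdown 0 h library 1 (0.0537), or any 1 library of control at 0 h or of the knockdown at 36 h (0.0747 to 0.184).

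Of the paxillin family's summed TPM (Pxn, Tgfb1i1 and Lpxn), Pxn made up 98.6% ± 0.521 (SD, n = 3) in control at 0 h and 88.3% ± 7.93 in the knockdown. At 36 h the shares were 97.3% ± 1.62 and 91.5% ± 6.92. It remained the main paxillin family transcript in each of the 12 libraries.

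Bcar1 (ENSMUSG00000031955) encodes p130Cas, a scaffold whose substrate domain is phosphorylated by Src family kinases and then binds Crk. Its control levels at 0 h were 85.9, 84.2 and 100 TPM, against 33.99, 11.7 and 45.7 TPM in the knockdown. At 36 h they were 88.3, 50.0 and 68.3 TPM against 52.2, 51.2 and 40.2 TPM. The 0 h groups were well apart, and the 36 h groups overlapped through control 36 h library 3. This gave a log2 fold change of -1.72 at 0 h (SE 0.404, limma adjusted p = 0.0174) and -0.49 at 36 h (limma adjusted p = 0.647). Without knockdown 0 h library 2, which held 29.4% of the mean of the other 2, the 0 h value was -1.17 (limma adjusted p = 0.0051).

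Zyx (ENSMUSG00000029860) encodes zyxin, a LIM protein of mature adhesions and stress fibres that recruits Ena/VASP proteins. It was the steadiest of the 10 in control cells, with 66.4, 67.3 and 66.4 TPM at 0 h and 71.2, 60.9 and 67.8 TPM at 36 h. The knockdown libraries had 36.5, 15.6 and 35.1 TPM at 0 h and 39.5, 35.1 and 36.7 TPM at 36 h. The highest knockdown library, at 39.5 TPM, lay well under the lowest control library, at 60.9 TPM. On the log2 scale the difference was -1.26 at 0 h (SE 0.278, limma adjusted p = 0.0138) and -0.83 at 36 h (SE 0.278, limma adjusted p = 0.152). Without knockdown 0 h library 2 both were called, at -0.88 (limma adjusted p = 0.000338) and -0.83 (limma adjusted p = 0.000385).

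Neither talin-1 nor vinculin, which join integrins to actin, passed the test. Tln1 (ENSMUSG00000028465) encodes talin-1, the main integrin activator and first actin link. It had 42.6, 37.3 and 25.7 TPM in control at 0 h against 16.9, 29.3 and 35.0 TPM in the knockdown, and 65.7, 17.2 and 49.7 TPM against 32.2, 31.9 and 19.7 TPM at 36 h. The groups overlapped at both times, and control 36 h library 3 was lower than any knockdown library of that time. Its log2 fold change was -0.40 at 0 h (95% interval -1.39 to 0.60, limma adjusted p = 0.521) and -0.48 at 36 h (limma adjusted p = 0.703). The interval at 0 h takes in the value of Zyx, and median-of-ratios scaling turned the 0 h value to 0.054.

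Vcl (ENSMUSG00000021823) encodes vinculin, which reinforces the talin to actin link under load. Control libraries had 18.2, 17.7 and 16.0 TPM at 0 h, and knockdown libraries 3.49, 2.15 and 14.3 TPM. At 36 h the levels were 24.3, 9.36 and 23.2 TPM in control against 10.7, 10.8 and 7.34 TPM in the knockdown. At 0 h the groups did not overlap, but knockdown 0 h library 3 came close to control and held 505% of the mean of its 2 fellows. The difference on the log2 scale was -1.61 at 0 h (SE 0.516, limma adjusted p = 0.0517) and -0.82 at 36 h (limma adjusted p = 0.506), and neither was called. The 0 h value was -2.28 without knockdown 0 h library 3 (limma adjusted p = 0.00272). In that fit 41.1% of 14276 tested genes were called, 5038 of them lower. Without knockdown 0 h library 2 the value of Vcl was -1.14 (limma adjusted p = 0.122).

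Of the ILK, PINCH and parvin complex, Ilk was called lower at 0 h and Parva was not. Ilk (ENSMUSG00000030890) encodes integrin-linked kinase, which works as a scaffold of that complex and whose loss in mammary epithelium is known to impair lactation. It was the most abundant of the 10, with 148, 154 and 161 TPM in control at 0 h and 155, 127 and 133 TPM at 36 h. The knockdown libraries held 82.6, 20.7 and 75.7 TPM at 0 h and 88.6, 85.5 and 94.7 TPM at 36 h. The 2 sets of 6 did not overlap. This was a log2 fold change of -1.58 at 0 h (SE 0.406, limma adjusted p = 0.0244) and -0.62 at 36 h (limma adjusted p = 0.531). Without knockdown 0 h library 2, where Ilk held 26.1% of the mean of the other 2, the 0 h value was -0.95 (limma adjusted p = 0.00027) and that at 36 h was called (limma adjusted p = 0.00183).

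Parva (ENSMUSG00000030770) encodes alpha-parvin, the actin-binding partner of ILK. Its control levels were 62.7, 58.5 and 56.4 TPM at 0 h and 69.0, 56.3 and 62.0 TPM at 36 h. The knockdown levels were 62.8, 21.2 and 59.7 TPM at 0 h and 59.7, 64.7 and 68.9 TPM at 36 h. Apart from knockdown 0 h library 2, every knockdown library lay within or beside the control range. As a log2 fold change this was -0.45 at 0 h (95% interval -1.19 to 0.29, limma adjusted p = 0.336) and 0.05 at 36 h (95% interval -0.69 to 0.79, limma adjusted p = 0.979). The 0 h value was 0.049 without knockdown 0 h library 2 and 0.0061 under median-of-ratios scaling.

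A ratio of 2 genes within a library does not depend on how the library was scaled, so Ilk was set against Parva, a pair chosen after their values were seen. In control the ratio of Ilk to Parva TPM was 2.35, 2.64 and 2.86 at 0 h and 2.24, 2.26 and 2.14 at 36 h. In the knockdown it was 1.32, 0.9755 and 1.27 at 0 h and 1.48, 1.32 and 1.37 at 36 h. Knockdown 0 h library 2, low in both genes, had the lowest ratio of all, and no knockdown library reached the lowest control value. The mean ratio was 2.62 ± 0.253 against 1.19 ± 0.184 at 0 h and 2.21 ± 0.0664 against 1.39 ± 0.0832 at 36 h (SD, n = 3). The ratio shows unequal change of the 2 genes and not that either was constant. Of all tested genes set against Parva in the same way, 8.53% had all 6 knockdown libraries below all 6 control libraries. Pxn, Bcar1 and Zyx were among them as well as Ilk. Set against Parva, the knockdown mean of Pxn was 31.8% of the control mean at 0 h and 32.9% at 36 h, and that of Zyx was 56.3% and 54.1%.

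**Figure D3:**
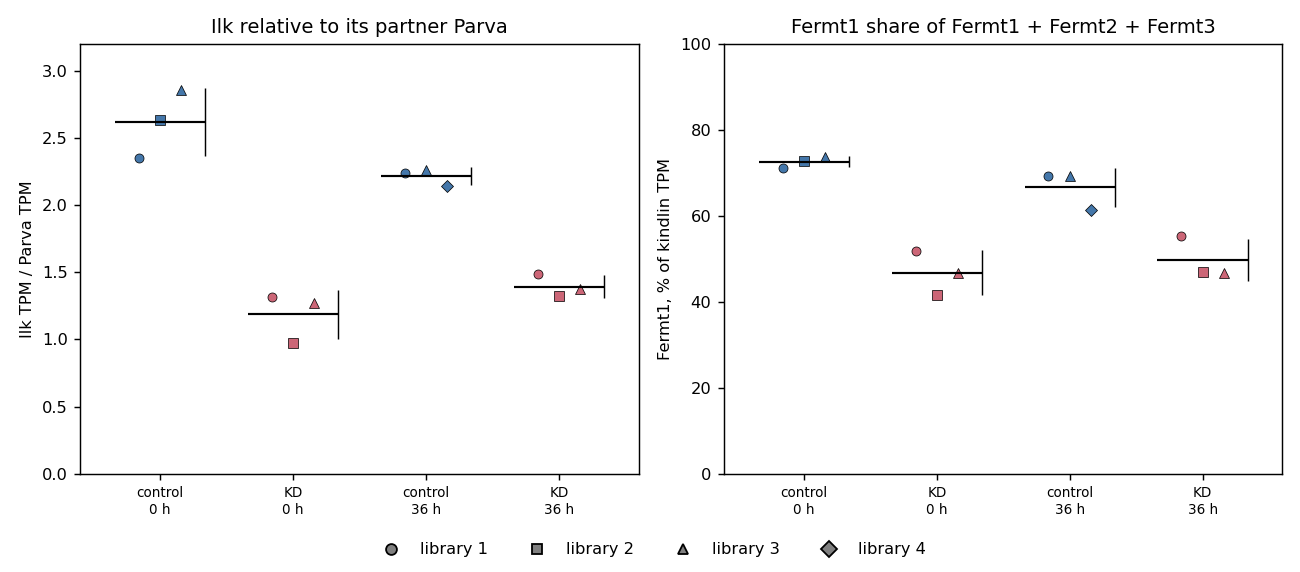
Ratio of Ilk TPM to Parva TPM in the same library (left) and share of Fermt1 in summed kindlin TPM, in percent (right), by group, with 1 point per library, a line at the mean and a bar of 1 SD either way (n = 3). The ratio of Ilk to Parva is 2.14 or more in the control libraries and 1.48 or less in the knockdown libraries.

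Fermt1 (ENSMUSG00000027356) encodes kindlin-1, the epithelial kindlin that binds integrin tails beside talin. It stood at 70.3, 50.1 and 73.2 TPM in control at 0 h against 29.5, 42.6 and 14.7 TPM in the knockdown, and at 52.6, 50.1 and 39.9 TPM against 28.5, 20.2 and 19.0 TPM at 36 h. The groups did not overlap at either time, but at 0 h they did after median-of-ratios scaling. Its order among the knockdown 0 h libraries differed from that of the scaffolds: library 2 had the most, at 193% of the mean of the other 2, and library 3 the least. The log2 fold change was -1.23 at 0 h (SE 0.340, limma adjusted p = 0.0318) and -1.06 at 36 h (limma adjusted p = 0.137). The 0 h call was lost with that scaling (-0.77, limma adjusted p = 0.255).

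The share of Fermt1 in the summed TPM of the 3 kindlins was 71.2%, 72.8% and 73.8% in control at 0 h and 51.9%, 41.5% and 46.8% in the knockdown. At 36 h it was 69.3%, 69.3% and 61.3% against 55.3%, 47.0% and 46.8%. No knockdown library reached a control value. Most of the remainder was Fermt2, which encodes kindlin-2, the broadly expressed form. Fermt2 had 28.1, 18.3 and 25.9 TPM in control at 0 h and 27.2, 60.0 and 16.2 TPM in the knockdown, with knockdown 0 h library 2 far above the rest. Its log2 fold change was 0.32 at 0 h (limma adjusted p = 0.523) and -0.07 at 36 h (limma adjusted p = 0.971).

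Neither tyrosine kinase passed the test. Ptk2 (ENSMUSG00000022607) encodes focal adhesion kinase, FAK, whose autophosphorylation creates the docking site for Src. Control libraries had 33.8, 28.7 and 30.9 TPM at 0 h and knockdown libraries 17.9, 8.67 and 27.8 TPM, followed at 36 h by 37.6, 20.7 and 29.5 TPM against 28.4, 31.2 and 20.0 TPM. The 0 h groups did not overlap but nearly met at knockdown 0 h library 3, and the 36 h groups overlapped throughout. The log2 fold change was -0.88 at 0 h (limma adjusted p = 0.107) and -0.12 at 36 h (95% interval -0.92 to 0.68, limma adjusted p = 0.935). The 0 h value was -1.25 without knockdown 0 h library 3 (limma adjusted p = 0.0164). That was the 1 call of Ptk2 at 0 h in 23 other settings, in a fit that called 41.1% of 14276 tested genes. Its value was -0.46 without knockdown 0 h library 2 (limma adjusted p = 0.248). Under median-of-ratios scaling it was -0.45 (limma adjusted p = 0.1603), and the groups overlapped.

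Src (ENSMUSG00000027646), the tyrosine kinase that partners FAK, was the least abundant of the 10. Its levels were 6.53, 6.82 and 2.64 TPM in control and 2.04, 4.9 and 6.32 TPM with the knockdown at 0 h, and 9.85, 6.02 and 10.1 TPM against 7.0, 5.93 and 5.0 TPM at 36 h. The groups overlapped at both times. Its log2 fold change was -0.24 at 0 h (95% interval -1.07 to 0.60, limma adjusted p = 0.656) and -0.45 at 36 h (limma adjusted p = 0.658), with 0.15 at 0 h under median-of-ratios scaling. Src made up 8.09% ± 3.86 (SD, n = 3) of the summed TPM of Src, Fyn, Yes1 and Lyn in control at 0 h, whereas Ptk2 made up 81.4% ± 3.33 of the sum of Ptk2 and Ptk2b.

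The order of the levels also differed between groups. In control at 0 h, mean levels ran from Ilk at 154 ± 6.80 TPM (SD, n = 3) through Bcar1 at 90.2 ± 8.96, Zyx at 66.7 ± 0.503, Fermt1 at 64.6 ± 12.6, Parva at 59.2 ± 3.22, Pxn at 39.0 ± 1.94, Tln1 at 35.2 ± 8.63, Ptk2 at 31.1 ± 2.58 and Vcl at 17.3 ± 1.15 to Src at 5.33 ± 2.33. Libraries of neighbours overlapped for Zyx and Fermt1, Fermt1 and Parva, Pxn and Tln1, and Tln1 and Ptk2, and did not for the other 5 pairs. In the knockdown at 36 h the order was Ilk at 89.6 ± 4.67 TPM, Parva at 64.4 ± 4.63, Bcar1 at 47.9 ± 6.63, Zyx at 37.1 ± 2.22, Tln1 at 27.9 ± 7.15, Ptk2 at 26.5 ± 5.84, Fermt1 at 22.5 ± 5.18, Pxn at 11.7 ± 3.14, Vcl at 9.62 ± 1.98 and Src at 5.98 ± 1.00. There only Tln1 and Ptk2, Ptk2 and Fermt1, and Pxn and Vcl overlapped. At 36 h Parva was at rank 4 in control and rank 2 in the knockdown, and Pxn at rank 7 and rank 8. These control ranks were not clear-cut. In control at 36 h libraries overlapped for every pair of neighbours except Ilk and Bcar1, and Parva and Fermt1. In the knockdown at 0 h every pair of neighbours overlapped.

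The 36 h of migration moved none of the 10 past the test in either genotype. These comparisons share their libraries with those above. In control cells the median log2 fold change from 0 h to 36 h was -0.06, against -0.01 for all tested genes. By limma none of the 10 was called, none had an unadjusted p under 0.05, and 0.36% of tested genes were called. The values ran from -0.42 to 0.66, the highest being that of Src. In knockdown cells the median was 0.51, against 0.33 for all tested genes. These were 0.19 and 0.075 without knockdown 0 h library 2, and 0.18 and 0.028 under median-of-ratios scaling. Again limma called none of the 10 and gave none an unadjusted p under 0.05, where 1.12% of tested genes were called. Ilk, Bcar1 and Vcl had the largest values, at 0.80, 0.82 and 0.81 (limma adjusted p between 0.32 and 0.36), and Fermt1 had -0.25. Ilk was alone in having all 3 knockdown libraries at 36 h above those at 0 h, which 15% of tested genes had. The values of Ilk, Bcar1 and Vcl were 0.18, 0.26 and 0.34 without knockdown 0 h library 2. Vcl was called in that comparison without knockdown 0 h library 3 (1.48, limma adjusted p = 0.039). In that fit 1572 of 14276 tested genes were called, 1411 of them higher.

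The change with time was also compared between genotypes, as the knockdown change minus the control change. By limma none of the 10 was called and none had an unadjusted p under 0.05, the smallest being 0.0528. Of all tested genes 0.0% were called, and 766 had an unadjusted p under 0.05. The median of the 10 was 0.54, against 0.34 for all tested genes, and without knockdown 0 h library 2 these were 0.33 and 0.087. Bcar1 had the largest value, 1.24 (95% interval -0.02 to 2.49, limma adjusted p = 0.595), followed by Ilk at 0.97. Without knockdown 0 h library 2, Bcar1 stood at 0.68 and Ilk at 0.34, below Fermt1 at 0.51. So the smaller fold changes of Bcar1 and Ilk at 36 h than at 0 h were not shown to differ between the times.

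Starts of these genes were read from RefSeq, as the 250 bases before each annotated start on GRCm38.p6. The submitters' processing notes name GRCm39, so nothing was joined by coordinate. There were 9 such windows for 7 of the 10 genes, and Pxn, Ptk2 and Parva had no window to search. They were searched on both strands for the CArG box, the element bound by serum response factor, and for CAGGTG with its reverse complement CACCTG, the E-box form that Snail proteins bind. Of 32851 windows in the mouse set, 1.47% held a CArG box and 17.2% the E-box. Among the 9 windows, 1 held a CArG box, that of Vcl, and none held the E-box. A match of letters is not a bound site, and these windows leave out everything beyond 250 bases. The Vcl window, chr14:20929148-20929397 on the plus strand, is shown for its CArG box, in capitals, which begins 227 bases before the start. The windows of Zyx, chr6:42349578-42349827, and Ilk, chr7:105736340-105736589, both on the plus strand, are shown because these genes were low in every knockdown library. They hold neither motif and are in lower case throughout.
Vcl: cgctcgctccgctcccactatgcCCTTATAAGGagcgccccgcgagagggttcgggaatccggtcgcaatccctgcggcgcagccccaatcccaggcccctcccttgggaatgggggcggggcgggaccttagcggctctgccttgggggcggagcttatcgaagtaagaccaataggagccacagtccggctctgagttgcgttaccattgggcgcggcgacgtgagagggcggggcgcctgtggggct
Zyx: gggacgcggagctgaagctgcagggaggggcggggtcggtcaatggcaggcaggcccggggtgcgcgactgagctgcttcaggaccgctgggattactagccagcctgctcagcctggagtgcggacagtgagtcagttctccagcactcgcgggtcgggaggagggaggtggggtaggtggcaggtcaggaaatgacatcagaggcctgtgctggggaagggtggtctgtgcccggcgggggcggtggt
Ilk: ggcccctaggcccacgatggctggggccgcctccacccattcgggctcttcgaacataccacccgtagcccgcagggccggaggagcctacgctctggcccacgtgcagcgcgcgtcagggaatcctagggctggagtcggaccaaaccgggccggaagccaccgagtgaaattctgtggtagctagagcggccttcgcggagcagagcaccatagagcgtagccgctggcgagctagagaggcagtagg

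Other genes of the same adhesion machinery were read from 7 lists of 62 genes, 54 of which were tested. At 0 h, 16 of the 54 were lower in the knockdown and none higher, with a median log2 fold change of -0.72, where 14.6% of all tested genes were lower and their median was -0.41. The count was 11 under median-of-ratios scaling, 7 (of 62) with no filter, 6 with a replicate block, and 0 when only the 0 h libraries were fitted. In the same order, 1570 of 14373, 1015 of 35924, 835 of 14426 and 64 of 13328 genes tested in all were lower. The count was 4, 6 and 8 without control 0 h library 1, 2 and 3, and 29 without knockdown 0 h library 3. Beside these, 641 of 14317, 837 of 14336, 785 of 14364 and 5038 of 14276 genes were lower. At 36 h, 1 of the 54 was lower, with a median of -0.26, against 1.64% and -0.09 for all tested genes. That count was 0 without control 36 h library 1 or 4, without any 1 knockdown 36 h library or with a replicate block. It was 2 without knockdown 0 h library 1 or 3, where 212 of 14337 and 367 of 14276 genes tested in all were lower. It was 5 under median-of-ratios scaling (485 of 14373 lower) and 7 when only the 36 h libraries were fitted (1499 of 13491). Without knockdown 0 h library 2 it was 8, where 1701 of 14227 were lower.

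The partners nearest to the 10 varied by module. None of the 4 tested genes of talin, kindlin and Rap1 signalling was called at 0 h by limma or had an unadjusted p under 0.05, and their median was -0.08. Of 4 tested in the ILK complex, Lims1, encoding PINCH-1, was lower (-1.26, limma adjusted p = 0.00654). Lims1 had 91.9, 91.1 and 88.0 TPM in control at 0 h against 52.0, 25.7 and 38.04 TPM, and 75.0, 81.7 and 77.4 TPM against 45.0, 44.4 and 42.0 TPM at 36 h. As for Ilk, no knockdown library reached a control level. Its 36 h value was -0.82 (limma adjusted p = 0.0900).

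Among 7 tested paxillin partners, Pak1, a kinase activated by Rac and Cdc42, was lower (-0.87, limma adjusted p = 0.0439), with a list median of -0.37. Among 8 of the Cas and Crk module, Nedd9, a relative of p130Cas, and the adaptor Crkl were lower, and the list median was -0.77. Nedd9 had 20.6, 18.7 and 20.7 TPM in control against 4.8, 3.87 and 8.11 TPM in the knockdown (-1.72, limma adjusted p = 0.00276). Of 10 genes around FAK and Src, Asap1, an Arf GTPase-activating protein of adhesions, and Arhgap35, another GTPase-activating protein, were lower (-0.97 and -1.03), with a list median of -0.68. Asap1 was the gene called at 36 h as well. It held 15.6, 14.6 and 14.2 TPM in control at 0 h against 7.26, 7.42 and 6.57 TPM, and 16.3, 11.7 and 18.7 TPM against 5.93, 5.48 and 6.12 TPM at 36 h (-1.25, SE 0.199, limma adjusted p = 0.0150). Its knockdown libraries were close together at both times, including knockdown 0 h library 2.

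The zyxin relatives and actin linkers held most of the other calls at 0 h. Of 10 genes of the zyxin family and Ena/VASP, 3 were lower: Lpp, a zyxin paralogue (-1.11), Fblim1, encoding migfilin (-1.31), and Vasp, an actin polymerase (-0.88). Of 11 actin linkers 7 were lower, with a list median of -1.16. They include the vinculin-binding Sorbs3, the tensins Tns2 and Tns4, Kank1, which sits at the rim of adhesions, and the actin crosslinkers Flna and Actn4. Sorbs3 had the lowest adjusted p (-1.46, limma adjusted p = 0.0024). Of 10 tested genes known as targets of serum response factor in actin remodelling, 6 were lower at 0 h, among them Tpm1 (-1.46), Tpm4 (-2.15) and Fhl2 (-1.11), with a list median of -1.06. Actb was also among them (-1.21), although reads can be shared with its near-identical copies. The values of these 10 ran from -2.15 to 0.40 at 0 h. At 36 h they ran from -1.22 to 0.99, with a median of -0.51, and none was called by limma. By the same limma fit 6 of them had an unadjusted p under 0.05, as had 2345 of all 14426 tested genes.

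**Figure D4:**
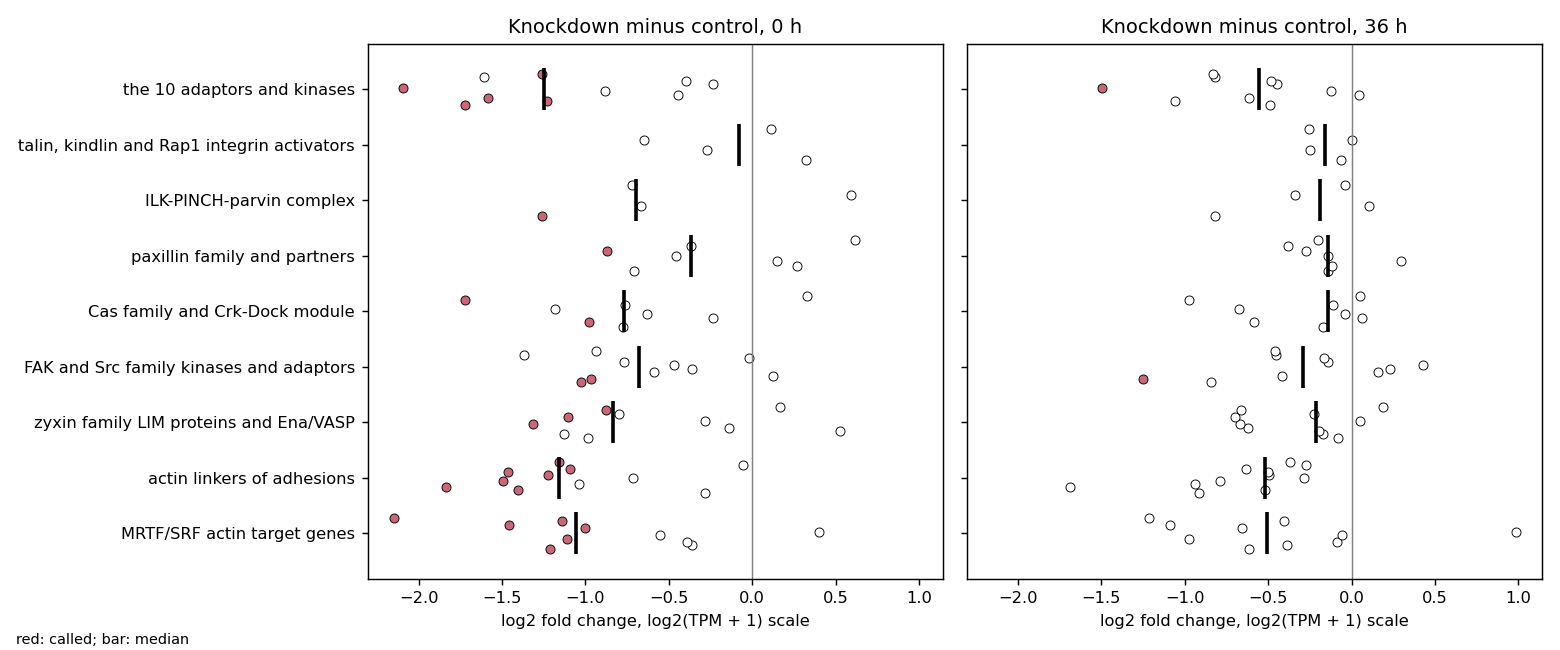
Log2 fold change, knockdown against control, of every tested gene in the 10 genes and in each list of other adhesion genes, at 0 h and at 36 h, with 1 point per gene, filled where called, and a bar at the median. The medians at 0 h run from -0.08 for talin, kindlin and Rap1 to -1.25 for the 10 genes, beside -0.41 for all tested genes.

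Across the 12 libraries the 10 genes did not share a single profile. Over their 45 pairs, Pearson's r of log2(TPM + 1) had a median of 0.64, from -0.16 for Parva and Fermt1 to 0.97 for Zyx and Ilk. Libraries of a group share their condition, so these values describe the 12 libraries and carry no test. The search for the most similar genes took in 10267 genes with a mean of 5 TPM or more. Pxn was closest to Dag1 (r = 0.99), encoding the laminin receptor dystroglycan, and Nedd4 (0.99), a ubiquitin ligase. Ilk was closest to Tbccd1 and Map2k3, Bcar1 to Spata2l and Pacsin2, and Vcl to Dhx57 and Snx19. Ptk2 was closest to Hp1bp3 and Vps39 and Parva to Srprb and Rnf139. Such likeness was common: 1843 genes reached r of 0.9 with Bcar1, 1801 with Ilk and 1616 with Parva. It was rare for Fermt1 (4 genes, Atxn7l3b and Lrp1 closest), Src (12 genes, Mapk8ip1 and Rarg closest) and Tln1 (35 genes, Numa1 and Nup153 closest). These correlations used unscaled TPM and included knockdown 0 h library 2, which stood apart. Against the mean of the other 2 libraries of its group, it held 29.4% for Bcar1, 26.1% for Ilk and 34.6% for Parva. For Fermt1, Src and Tln1 it held 193%, 117% and 113%. The part of that library in these counts was not tested.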

How the data were processed

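RNA was sequenced from 12 libraries of HC11 cells in 4 groups of 3. The authors deposited 1 table of TPM per gene. The submitters' processing notes name cutadapt 1.9.1, FastQC, HISAT2 2.2.1, HTSeq, DESeq2 and the build GRCm39, without saying how TPM was computed. The library kit, per the labels, was a stranded mRNA kit. The table holds no counts, which leaves library depth unknown, and no count model was fitted. TPM has the same total in every library, so an excess of some transcripts lowers all others.

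Groups came from the labels. The title of control 36 h library 4 carries the word mix, which is not explained. The authors' control 36 h mean column covers libraries 1 and 3 alone, and no deposited mean was used.

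Genes reaching 1 TPM in 3 or more of the 12 libraries were tested on log2(TPM + 1), a scale that understates changes of low genes, with limma 3.58.1 (lmFit, contrasts.fit, eBayes with trend, two-sided) in R 4.3.3. One model with a mean per group gave 5 comparisons, adjusted over 14426 genes. The script was tested on simulated data. The 10 genes, the lists, the alternatives and the rule for naming were chosen with earlier results of these data known. The rule named all 10 genes, Snai1, up to 4 called genes per list and comparison with the lowest adjusted p, and the 2 most similar genes to each of the 10, and a few genes it named are not reported here. Flna, Actn4, Fermt2 and the ratio to Parva were added after their values were seen.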

Additional observations from a re-analysis of the deposited data

How the results depend on the processing

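The comparisons were refitted under 23 settings, 12 of them leaving out 1 library (22 for the difference, which needs all 4 groups), and 1 setting (median-of-ratios scaling of 11 libraries) was added after seeing the data. Of 1248 fold changes of the 10 genes and Snai1, 1188 kept their direction. At 0 h the call was kept in 22 settings for Pxn, 21 for Zyx, 18 for Bcar1 and Ilk, and 15 for Fermt1.

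Each count of members is given with the share of all tested genes called in the same fit. Against 5 members called at 0 h (17.7%), there were 2 with no filter (3.50%) and 0 with only the groups compared (0.668%). Leaving out 1 library gave 1 to 7, with 1 without control 0 h library 1 (5.27%) and 7 without knockdown 0 h library 3 (41.1%). Against 1 at 36 h (2.53%), there were 0 with a pseudocount of 0.1 (1.74%) or no filter (0.534%). There were also 0 with the replicate block, alone (0.0347%) or with scaling (0.216%), and 2 with scaling (5.66%). There were 4 with only the groups compared (17.6%), without 2 libraries (10.3%) or with scaling of 11 libraries (19.0%). Leaving out 1 library gave 0 to 4 (0.168% to 19.0%). Leaving out 1 library gave 0 called in the control time comparison and in the difference, and 0 to 1 in the knockdown over time. The 1 was without knockdown 0 h library 3, where 1572 of 14276 tested genes were called.

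Genes called at 0 h numbered 2550, of which 17.5% rose, and 2696 with scaling, of which 41.8% rose. Scaling moved the median of all genes at 0 h from -0.41 to -0.02. The count was 1258 with no filter, 1011 with the replicate block, 1395 with block and scaling, 89 with only the groups compared, and 755 to 5869 leaving out 1 library. At 36 h it was 365, against 192 with no filter, 813 with scaling, 5 with the replicate block, 31 with block and scaling, 2377 with only the groups compared, 1448 without 2 libraries, 2702 with scaling of 11, and 24 to 2699 leaving out 1. Over time in control it was 52, against 85 with scaling, 6 with the block, 11 with block and scaling, 318 with only the groups compared, 160 without 2 libraries, 382 with scaling of 11, and 18 to 401 leaving out 1. Over time in the knockdown it was 162 (88.9% higher), against 225 with scaling (75.6% higher), 40 with the block, 56 with block and scaling, 19 with only the groups compared, 258 without 2 libraries, 393 with scaling of 11, and 46 to 1572 leaving out 1. For the difference it was 0, against 1 with no filter, scaling, the block, or block and scaling, 8 without 2 libraries, 5 with scaling of 11, and 0 to 10 leaving out 1. The 2 libraries were knockdown 0 h library 2 and control 36 h library 4. The replicate block lost Fermt1 at 0 h (limma adjusted p = 0.0717). Replicate numbers share no stated origin, and over 15 same-numbered pairs deviations from the group means correlated at -0.287 to 0.132. Of the 12 libraries, 3 correlated best with libraries of their own number. The cause of these moves was not tested.

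The log2 fold changes that turned sign were uncalled under either setting. With scaling, alone or with the block, they were Tln1 0.054, Src 0.15 and Parva 0.0061 at 0 h, Tln1 -0.28 over time in the knockdown, and Fermt1 -0.19 (-0.44 with the block) in the difference. With the block they were Ptk2 0.022 (0.025 with scaling) at 36 h, Vcl -0.30 (-0.22 with scaling) and Parva -0.092 over time in control, and Tln1 0.014 in the difference. With mitochondrial genes removed, Zyx over time in control was 0.019. Without 2 libraries they were Parva 0.049 at 0 h, Vcl -0.18 and Tln1 -0.027 over time in control, Fermt1 0.081 over time in the knockdown, and Tln1 0.18, Src 0.010 and Parva -0.0046 in the difference. With scaling of 11 libraries they were Parva 0.23 at 0 h, Zyx -0.040 and Parva -0.019 over time in the knockdown, and Zyx -0.029 and Parva -0.084 in the difference. Leaving out 1 library turned the sign of these, with the range given: Parva -0.71 to 0.049 and Src -0.59 to 0.14 at 0 h, Parva -0.024 to 0.12 and Ptk2 -0.34 to 0.074 at 36 h, Parva -0.0014 to 0.14, Ptk2 -0.32 to 0.097, Pxn -0.39 to 0.098, Tln1 -0.23 to 0.71, Vcl -0.21 to 0.44 and Zyx -0.053 to 0.058 over time in control, Fermt1 -0.65 to 0.081 and Tln1 -0.23 to 0.30 over time in the knockdown, Fermt1 -0.23 to 0.51, Parva -0.0023 to 0.76, Src -0.58 to 0.15 and Tln1 -0.64 to 0.30 in the difference. Depth is unknown, so the precision of low values such as Src cannot be given.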

Other observations

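Other adhesion families were also read as shares of their summed TPM. Tln1 made up 69.7% ± 5.997 (SD, n = 3) of summed talin TPM in control at 0 h, 61.4% ± 8.53 in the knockdown, and 73.1% ± 6.54 against 70.2% ± 5.21 at 36 h, with overlapping libraries at both times. Ptk2 made up 81.4% ± 3.33 against 81.2% ± 4.43 of the FAK pair at 0 h and 87.7% ± 2.73 against 88.2% ± 1.63 at 36 h. Bcar1 made up 67.0% ± 2.25 of the Cas family in control at 0 h and 56.0% ± 6.07 in the knockdown, and the libraries did not overlap. At 36 h its shares were 60.1% ± 3.16 and 56.3% ± 3.33, and the libraries overlapped. Parva made up 87.3% ± 3.68 of the parvins in control at 0 h and 72.9% ± 24.1 in the knockdown, where knockdown 0 h library 2 had 45.0%. These shares were not tested.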
